A study of Homo sapiens with 12 samples.

Results

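The RNA of HEPM cells was compared between MSX1 plasmids that carry serine (R157S) or phenylalanine (R157F) in place of the same arginine. HEPM is an established human cell line grown from the mesenchyme of an embryonic palate, and RNA was taken 6 h after transfection. The comparison held 6 of the 12 libraries of the study, 3 from cells given the R157S plasmid and 3 from cells given the R157F plasmid. The other 6 libraries, 3 from R157K and 3 from wild-type (WT) MSX1 plasmids, entered the estimate of the spread between libraries and are given beside the pair. No empty-vector or untransfected cells were analysed here. All 12 libraries came from the same line with its own MSX1 gene in place, and the share of cells that took up a plasmid is not given in the sources used here. Levels are TPM (transcripts scaled to a fixed total per library), estimated by the authors, so each value is a share of the RNA in its library and the sequencing depth behind it is unknown. The labels do not state that the 3 libraries of a group had separate cultures as their source. P-values therefore reflect the variation among these libraries, which may be technical.

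MSX1 is a homeodomain transcription factor of the cranial neural crest that mostly represses its targets. Palatal mesenchyme that lacks it fails to grow, and loss of the gene in people and mice is known for cleft palate and missing teeth. PRMT1, named in the title of the study, transfers methyl groups to arginine side chains and is known to methylate MSX1. Serine is a small polar residue and phenylalanine a bulky aromatic one, and neither can take a methyl group as arginine does.

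The codon that the R157S, R157F and R157K plasmids change is shown within the coding sequence of the MSX1 transcript, since their names refer to it. In GENCODE 29 (GRCh38, plus strand) the MSX1 coding sequence has 303 codons in 2 exons on chromosome 4. The arginine codon is divided by the intron. Its first base, at 4860368, is the last base of exon 1, and the other 2 bases, at 4862701 and 4862702, open exon 2. The spliced sequence of codons 147 to 167 covers chr4:4860338-4862732 with the intron left out, and the capitals mark the arginine codon. The sources used here do not state the codons in the plasmids.
MSX1 codons 147 to 167: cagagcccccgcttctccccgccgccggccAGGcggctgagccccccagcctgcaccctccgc

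MSX1 RNA was lower in the R157S libraries than in the R157F libraries, with 1 library overlapping. It stood at 642.13, 385.72 and 325.74 TPM with R157S, against 983.85, 626.54 and 1006.75 TPM with R157F, and averaged 337 TPM with WT. R157S replicate 1 lay just above R157F replicate 2, and in each of the 3 same-numbered pairs the R157S library was the lower one. The log2 difference, R157S minus R157F on the log2(TPM + 1) scale used throughout, was -0.98 ± 0.32 (SE), and it did not pass the test (adjusted p = 0.0835, limma). The exact two-sided permutation p was 0.2, and 3 against 3 libraries cannot go below 0.1. With the replicate number as a block it passed (adjusted p = 0.041), as it did without WT replicate 2 (adjusted p = 0.0307), and with 1 of the 6 libraries left out the difference ran from -1.26 to -0.78 without passing. RNA of the plasmid and of the cells' own gene cannot be told apart in these values, and the part of the MSX1 level in the gene results was not tested. PRMT1 stood at 137.61, 137.64 and 135.8 TPM with R157S, against 174.65, 191.5 and 178.39 TPM with R157F. The groups did not overlap, and the log2 difference of -0.40 ± 0.15 (SE) did not pass the test over all genes (adjusted p = 0.12, limma; exact two-sided permutation p = 0.1). It passed without WT replicate 2 (adjusted p = 0.00406). None of the 8 arginine methyltransferase genes tested was called, and PRMT5, the main enzyme for symmetric dimethylation of arginine, averaged 111 ± 2.95 TPM with R157S and 104 ± 1.82 TPM with R157F (SD, n = 3 each).

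The libraries carried the RNA of mesenchymal cells. All but 1 of the 20 palatal mesenchyme markers passed the filter of at least 1 TPM in at least 3 of the 12 libraries, and their summed level was 27900 to 28600 TPM with R157S and 27300 to 29400 TPM with R157F. Summed epithelial markers were 92.0 to 107 TPM with R157S and 119 to 125 TPM with R157F, endothelial markers 35.2 to 38.5 and 39.8 to 41.3 TPM, and neural markers 266 to 284 and 315 to 337 TPM, in the same order. The endothelial sum rested on ROBO4, at 23.9 TPM with R157S and 32.4 TPM with R157F on average, whereas PECAM1, an adhesion molecule of endothelium and platelets, was called higher, with 5.07, 7.34 and 6.51 TPM with R157S, against 2.74, 3.59 and 2.16 TPM with R157F (log2 difference 0.94 ± 0.17 SE, adjusted p = 0.0176); with a library left out it passed without R157S replicate 1 or R157F replicate 2. CDH5 and KDR, which define endothelium, reached at most 0.09 and 0.19 TPM. Immune markers summed to 579 to 673 TPM with R157S and 452 to 690 TPM with R157F, and muscle markers to 23.2 to 31.4 and 29.8 to 35.8 TPM. The highest single values were 85.5 TPM for KRT19, 33.7 TPM for ROBO4, 260 TPM for TUBB3, 660 TPM for CD68 and 37.5 TPM for TNNT1. Of the 15 epithelial, 14 neural, 13 immune and 14 muscle markers, 2, 1, 2 and 5 were at 0 in all 12 libraries. The part of these levels in the gene results was not tested. In such bulk samples fewer cells of a type and less RNA per cell cannot be told apart. The 39 HOX genes, which palatal mesenchyme of cranial origin lacks, were at or near 0, and the highest value was 0.25 TPM. Mitochondrially encoded genes took 6.25 ± 0.117% of all TPM with R157S and 5.45 ± 0.143% with R157F, and ribosomal protein genes 6.82 ± 0.154% and 8.03 ± 0.192% (SD, n = 3 each; exact two-sided permutation p = 0.1 for both, the smallest that 3 against 3 allow). The typical gene varied little within both groups, with a median SD of 0.123 (log2) among R157S and 0.111 among R157F libraries, against 0.179 with R157K and 0.239 with WT. WT replicate 2 stood apart, with 9.96% of its TPM in mitochondrially encoded genes.

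Replacing phenylalanine by serine in MSX1 went with 635 genes higher and 163 genes lower among 14718 tested, at an adjusted p under 0.05 (limma, Benjamini-Hochberg over all genes). That is 5.42% of the genes tested, 4.31% higher and 1.11% lower. By gene type, 594 of the higher and 128 of the lower genes were protein-coding. Most differences were small, and only 47 of the higher and 38 of the lower genes reached a log2 difference of 1 or more in size. The R157S and R157F libraries did not overlap for 47.6% of all genes tested, 28.8% with R157S higher and 18.7% with it lower. When the libraries were rescaled by median ratios, 180 genes were higher and 159 lower, so the share of higher calls was 53.1% in place of 79.6%. Of the genes named with values below, HSPE1-MOB4, IFNAR2-IL10RB, TM7SF3, TIPARP, FSTL1, CTNNB1, RYK, VCAN, GPC3, LAMA4, EFEMP1, TIMP3, MT-CYB, MT-ND5, MT-ND3, EIF4EBP2, EIF5A2, PSMB2, KDM3A, EGLN1, SCD, FADS2, MX2, EIF2AK2, OAS2, SNHG16, BTG1, TXNIP, CCNG1, NT5E, TNFRSF11B and IL13RA1 were not called after this rescaling. The number of calls moved with the libraries in the fit: 4615 (31.4%) did in a fit of the 6 libraries alone and 3300 without WT replicate 2. Leaving out R157S replicate 1, 2 or 3 left 353, 61 and 46 calls, and leaving out R157F replicate 1, 2 or 3 left 120, 120 and 33. No gene called in both the full fit and any of these had a different sign.

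The difference between R157S and R157F followed the GC content of the transcripts. Genes were ordered by GC content and divided into 10 groups of 1422. In the group with the lowest GC content (27.8 to 38.9%) the median log2 difference was 0.301, and 89 genes were called higher and 2 lower. In the group with the highest (61.9 to 75.6%) the median was -0.389, and 0 genes were called higher and 70 lower. Across 14220 genes the rank correlation between difference and GC content was -0.647, and it was -0.607, -0.598 and -0.49 in the 3 same-numbered pairs, which are computed over the same genes. Between 2 libraries of the same group it ran from -0.244 to 0.117. After smooth trends on GC content and transcript length were taken out of each library, 302 genes were higher (2.12% of those tested) and 196 lower (1.38%), 3.5% in all, and 280 of the 798 calls remained. The part of GC content in the single results was not tested beyond this fit, and values with the trends removed are given wherever they end a call.

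**Figure D1:**
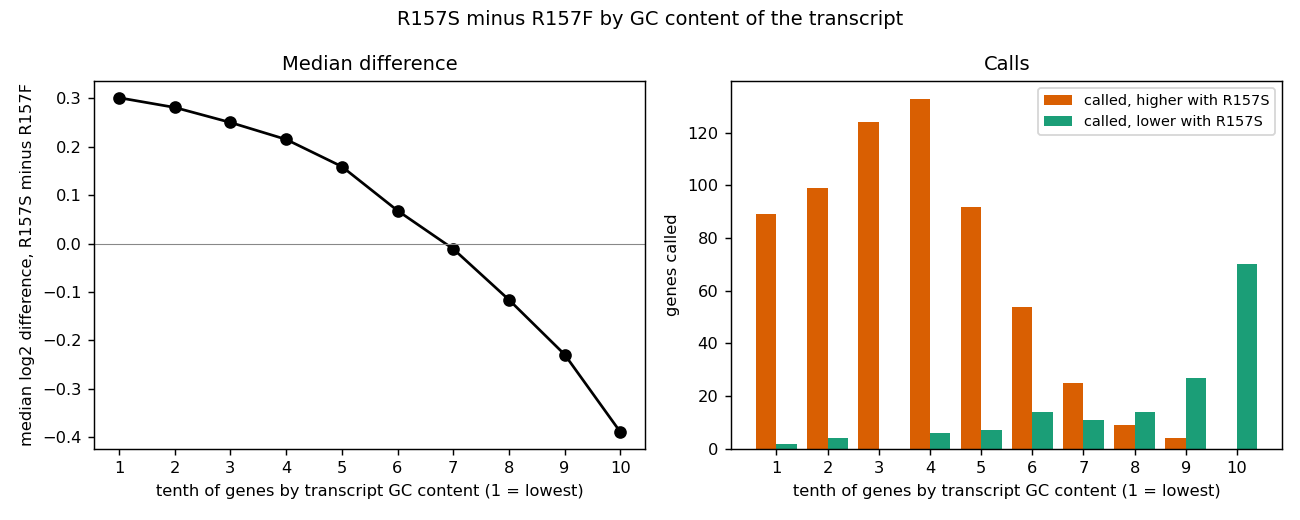
Left, median log2 difference (R157S minus R157F) in 10 equal groups of 14220 genes ordered by transcript GC content. Right, genes called higher or lower with R157S in each group. The median is 0.301 in the first group and -0.389 in the last, where 0 genes are called higher and 70 lower.

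For most of the called genes the R157S level was the one nearer WT. Of the 635 genes higher with R157S than with R157F, 612 (96.4%) had a WT mean closer to R157S than to R157F. Among all tested genes whose R157S mean was the higher one, the share was 78.1%. The WT mean lay above both in 551 of the 635, between them in 80 and below both in 4, while the R157K mean lay below both in 573. Among all 8631 tested genes with the higher mean in R157S, the WT mean was above both in 6007 and the R157K mean below both in 7222. Of the 163 genes lower with R157S, the WT mean was nearer R157S in 158 (96.9%, against 83.0% of all tested genes with the lower mean in R157S) and below both in 127, and the R157K mean was above both in 103. Over all 6083 tested genes with the lower mean in R157S, these counts were 4643 and 1676. The same 635 genes had a median log2 difference from WT of -0.25 with R157S and -0.79 with R157F, and the 163 had 0.32 and 1.10; these comparisons share the WT libraries and are given side by side without a test.

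**Figure D2:**
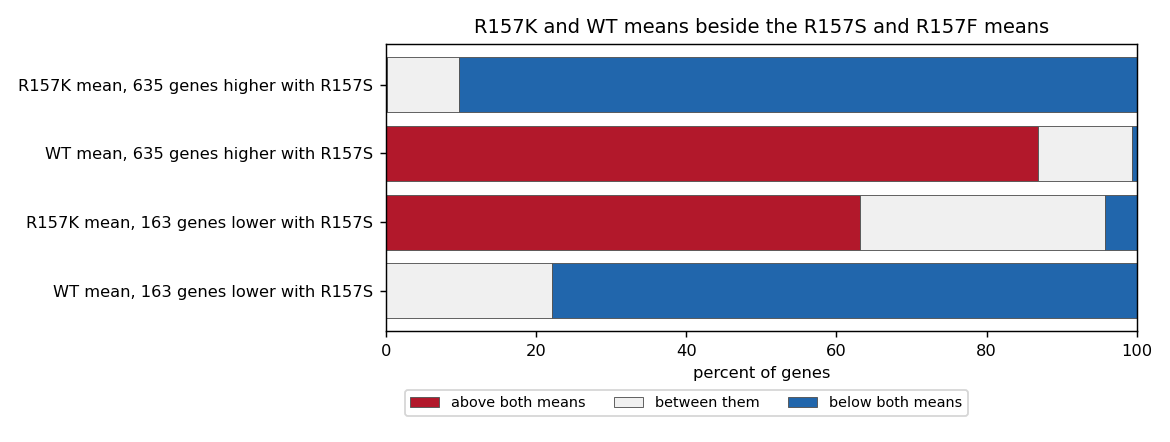
Share of the called genes whose R157K or WT mean lay above, between or below the R157S and R157F means on the log2(TPM + 1) scale. The WT mean was above both for 551 of the 635 higher genes and below both for 127 of the 163 lower genes. The R157K mean was below both for 573 of the 635 and above both for 103 of the 163.

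The 12 protein-coding genes with the largest called differences in favour of R157S ran from 1.13 to 1.97 on the log2 scale. SMAD5, which carries signals from BMP receptors to the nucleus, stood at 37.93, 47.94 and 46.64 TPM with R157S, against 19.48, 20.32 and 18.02 TPM with R157F (log2 difference 1.15 ± 0.12 SE, adjusted p = 0.0012). SOAT1, the enzyme of the endoplasmic reticulum that esterifies cholesterol, had 78.29, 75.32 and 86.32 TPM with R157S, against 36.74, 38.16 and 30.42 TPM with R157F (1.17 ± 0.12, adjusted p = 0.0012). ATP5PB, a stalk subunit of mitochondrial ATP synthase, had 179.97, 229.41 and 244.01 TPM with R157S, against 93.41, 99.49 and 79.78 TPM with R157F (1.25 ± 0.14, adjusted p = 0.00195). The 12 genes, like the 12 lower ones below, were chosen among genes whose groups do not overlap. Their separate ranges follow from that rule, and 47.6% of all genes tested had groups that did not overlap.

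POP4, a protein subunit of the RNA-processing enzymes RNase P and RNase MRP, had 67.05, 78.25 and 94.56 TPM with R157S, against 30.25, 37.49 and 32.43 TPM with R157F. SRD5A3, a reductase that makes dolichol for protein glycosylation, had 17.41, 14.46 and 20.23 TPM with R157S, against 6.13, 7.2 and 6.51 TPM with R157F. SELENOT, a selenoprotein of the endoplasmic reticulum, had 131.36, 141.79 and 159.44 TPM with R157S, against 66.55, 67.9 and 58.53 TPM with R157F. These 3 genes had log2 differences of 1.23, 1.26 and 1.15 and adjusted p of 0.00198, 0.00263 and 0.00448 (limma). PLEKHA3, a lipid-binding protein of the Golgi, averaged 18.8 TPM with R157S and 8.2 TPM with R157F (1.13 ± 0.15, adjusted p = 0.00448). CISD2, an iron-sulfur protein of the endoplasmic reticulum and outer mitochondrial membranes, the zinc finger gene ZNF737 and the membrane protein gene TM7SF3 differed by 1.33, 1.46 and 1.17. HSPE1-MOB4 and IFNAR2-IL10RB, at 1.97 and 1.40, are read-through genes that share exons with their neighbours, so their estimates are uncertain. The WT mean was above both groups in all 12 genes. With any 1 of the 6 libraries left out, 7 of the 12 (SMAD5, SOAT1, ATP5PB, POP4, SRD5A3, SELENOT and PLEKHA3) passed each time; with the GC and length trends removed 9 passed, and HSPE1-MOB4, TM7SF3 and IFNAR2-IL10RB did not (adjusted p = 0.0686, 0.0565 and 0.099). TM7SF3 and IFNAR2-IL10RB lost their calls with the replicate block (adjusted p = 0.0522 and 0.0603).

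**Figure D3:**
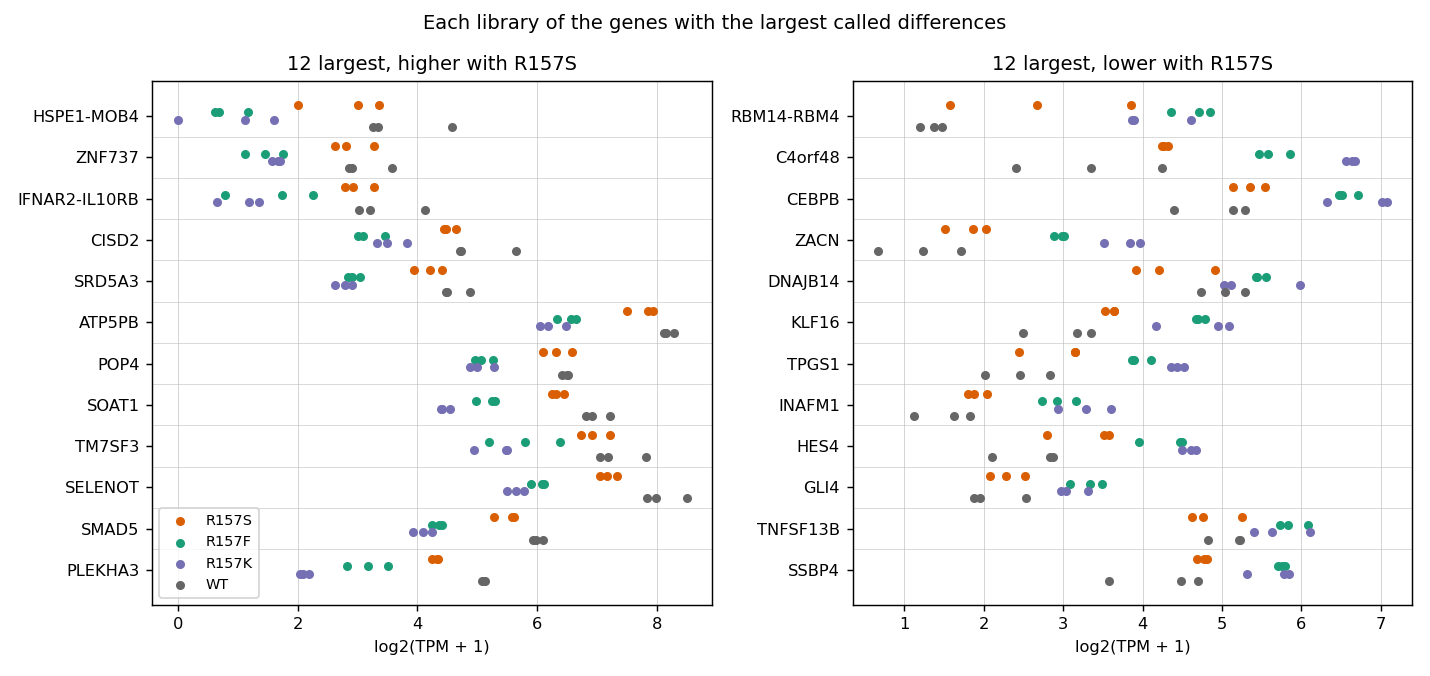
Each point is 1 library on the log2(TPM + 1) scale, for the 12 protein-coding genes with the largest called difference in each direction; rows within a gene run R157S, R157F, R157K and WT from top to bottom. For the 12 genes on the left the R157S points lie above all R157F points, as for SMAD5. On the right they lie below them, as for CEBPB. The rule that chose the genes required this separation.

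The 12 largest differences the other way ran from -1.0 to -1.94, and regulators of transcription stood among them. CEBPB, a leucine-zipper factor that inflammatory and growth signals induce, was lower with R157S, at 45.54, 39.85 and 34.24 TPM, against 88.14, 90.35 and 103.71 TPM with R157F (-1.22 ± 0.24, adjusted p = 0.0192). KLF16, a zinc finger repressor that binds GC-rich boxes, had 11.45, 10.58 and 11.45 TPM with R157S, against 24.5, 26.6 and 24.97 TPM with R157F (-1.12 ± 0.24, adjusted p = 0.0264). HES4, of the family of repressors that Notch signalling induces, had 10.45, 10.92 and 5.98 TPM with R157S, against 21.67, 14.52 and 21.11 TPM with R157F (-1.01 ± 0.24, adjusted p = 0.0363). The groups were far apart for CEBPB and KLF16, and for HES4 the groups came closest at 10.92 and 14.52 TPM. TNFSF13B, the cytokine BAFF, had 37.28, 26.19 and 23.62 TPM with R157S, against 66.91, 52.02 and 56.03 TPM with R157F (-1.0 ± 0.20, adjusted p = 0.0236). DNAJB14, a co-chaperone of the endoplasmic reticulum membrane, differed by -1.13, GLI4, a zinc finger gene, by -1.01, SSBP4, of a family of single-stranded DNA binding proteins, by -1.0, and TPGS1, a subunit of the tubulin polyglutamylase, by -1.04. The remaining 4 were RBM14-RBM4, a read-through gene with an uncertain estimate, C4orf48, ZACN and INAFM1. The GC content of 10 of the 12 transcripts was above 57%, whereas that of the 12 higher genes was below 49% in each. With the trends removed 6 of the 12 passed (CEBPB, KLF16, ZACN, TNFSF13B, DNAJB14 and RBM14-RBM4), and HES4, TPGS1, INAFM1, GLI4, C4orf48 and SSBP4 did not. None of the 12 passed in all 6 fits that left out 1 library: without R157S replicate 1, 2 or 3 there were 6, 0 and 0, and without R157F replicate 1, 2 or 3 there were 0, 1 and 0. DNAJB14 was not called with the replicate block (adjusted p = 0.0552).

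Immediate early genes, which cells transcribe within minutes of a stimulus, leaned lower with R157S. Of 29 tested, 5 were called lower and 1 higher (20.7%, against 5.42% of all genes), 23 had a difference below 0, and the list's median was -0.235 against 0.074 over all genes. JUNB, a partner of FOS in the AP-1 factor, had 73.11, 76.05 and 61.99 TPM with R157S, against 127.61, 125.79 and 130.81 TPM with R157F (-0.86 ± 0.21, adjusted p = 0.0406). JUN, another AP-1 subunit, had 88.4, 71.7 and 61.47 TPM with R157S, against 131.78, 116.37 and 132.12 TPM with R157F (-0.78 ± 0.20, adjusted p = 0.0418). IER2, a short nuclear protein, had 87.57, 76.64 and 73.7 TPM with R157S, against 140.08, 128.87 and 139.81 TPM with R157F (-0.78 ± 0.17, adjusted p = 0.0264). In these 3 genes no R157S library reached the lowest R157F library, and the WT means of 36.3, 58.4 and 61.8 TPM were lower still. IER5, a relative of IER2, averaged 28.0 TPM with R157S and 44.5 TPM with R157F (-0.65 ± 0.13, adjusted p = 0.0236), and KLF2, a zinc finger factor, 2.25 TPM and 5.39 TPM (-0.96 ± 0.20, adjusted p = 0.0254). TIPARP, an ADP-ribosyltransferase, was the gene called higher, at 135.74, 137.53 and 145.15 TPM with R157S, against 109.66, 99.14 and 97.85 TPM with R157F (0.45 ± 0.10, adjusted p = 0.0303). JUN and JUNB fall outside the rule that chose the named genes and were added after their values were seen. With the trends removed JUNB, JUN, IER2 and IER5 passed and KLF2 and TIPARP did not; without R157S replicate 1, JUN, IER2 and IER5 passed, and with any other 1 of the 6 libraries left out none of the list did.

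The 250 bases upstream of the annotated starts of genes from both sides of the comparison were compared, the sides being set by the direction of the call. RefSeq upstream sequences (GRCh38.p14) were matched by symbol for 10670 of the 14718 genes tested. They are shown for SMAD5 and SOAT1, higher with R157S, and for CEBPB and JUNB, lower with it, all on the plus strand and written in the direction of transcription. Capitals mark matches, on either strand, to any of the 6 motifs searched. These were the homeodomain core TAATTG that MSX1 binds, the TATA box as TATAAA, the NF-Y box as CCAAT, the GC box as GGGCGG, the cyclic AMP response element as TGACGTCA and the AP-1 site as TGAGTCA. The intervals are chr5:136132595-136132844 for SMAD5, chr1:179293547-179293796 for SOAT1, chr20:50190333-50190582 for CEBPB and chr19:12791236-12791485 for JUNB.
SMAD5 upstream: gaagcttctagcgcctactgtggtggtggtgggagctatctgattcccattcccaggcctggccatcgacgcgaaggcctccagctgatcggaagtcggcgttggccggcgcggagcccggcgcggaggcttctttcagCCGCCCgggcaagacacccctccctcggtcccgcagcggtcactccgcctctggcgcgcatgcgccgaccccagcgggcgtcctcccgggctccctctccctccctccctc
SOAT1 upstream: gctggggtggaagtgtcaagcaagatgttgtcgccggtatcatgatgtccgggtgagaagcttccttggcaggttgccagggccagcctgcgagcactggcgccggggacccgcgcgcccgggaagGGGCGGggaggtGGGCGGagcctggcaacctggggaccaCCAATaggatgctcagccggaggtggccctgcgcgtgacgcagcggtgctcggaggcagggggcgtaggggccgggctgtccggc
CEBPB upstream: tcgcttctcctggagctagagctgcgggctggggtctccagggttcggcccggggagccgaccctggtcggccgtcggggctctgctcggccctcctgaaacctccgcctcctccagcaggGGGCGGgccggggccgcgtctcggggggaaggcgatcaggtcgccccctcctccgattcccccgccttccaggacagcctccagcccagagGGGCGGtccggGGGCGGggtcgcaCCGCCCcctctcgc
JUNB upstream: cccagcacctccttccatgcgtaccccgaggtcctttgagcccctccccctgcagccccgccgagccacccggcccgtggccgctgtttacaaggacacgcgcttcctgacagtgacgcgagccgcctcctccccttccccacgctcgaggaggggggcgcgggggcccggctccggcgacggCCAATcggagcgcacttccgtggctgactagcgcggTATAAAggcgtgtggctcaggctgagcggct

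JUNB was the only one of the 4 with a TATAAA match, CEBPB held 4 GGGCGG matches and SMAD5 1, and none held TAATTG. Their GC contents were close, at 70.4% for SMAD5 and SOAT1, 75.6% for CEBPB and 70.8% for JUNB. TAATTG was present in 4.98% of 482 upstream sequences of genes higher with R157S, in 1.94% (2 of 103) of those of lower genes and in 3.94% of all 10670. CCAAT was in 32.8% of the higher, 42.7% of the lower and 35.2% of all, and GGGCGG in 68.5%, 74.8% and 67.2%. Among genes called with the trends removed TAATTG was in 3.78% of those higher and 3.25% of those lower, TATAAA in 2.94% and 6.49%, and CCAAT in 31.9% and 42.2%. In the full comparison TATAAA was in 6.02%, 5.83% and 5.45%, TGACGTCA in 3.53%, 3.88% and 2.99%, and TGAGTCA in 2.7%, 3.88% and 2.71%. The median GC content of the upstream sequences was 64.4% for higher genes, 68.8% for lower genes and 64.8% for all. A match shows that the letters are present and was not tied to binding.

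In the BMP and TGF-beta lists 4 of the 5 calls were higher with R157S, as were 79.6% of all calls. BMP ligands act in palatal mesenchyme through SMAD1, SMAD5 and SMAD9, TGF-beta ligands through SMAD2 and SMAD3, and all of them pair with SMAD4. SMAD4 stood at 71.02, 72.58 and 83.58 TPM with R157S, against 51.17, 53.31 and 46.42 TPM with R157F (0.58 ± 0.10, adjusted p = 0.0114). SMAD2 stood at 101.56, 102.4 and 97.31 TPM with R157S, against 78.62, 75.13 and 65.56 TPM with R157F (0.46 ± 0.09, adjusted p = 0.0221). Both genes had separate ranges, as SMAD5 did. They were the 2 called of 28 genes of the TGF-beta list (7.14%, against 5.42% of all genes). In the BMP list 3 of 26 were called (11.5%): SMAD5; FSTL1, a secreted glycoprotein, at 1480 ± 108 TPM with R157S and 1100 ± 93.7 TPM with R157F (0.43 ± 0.11, adjusted p = 0.0386); and NOG, the secreted BMP antagonist noggin, lower at 8.22 ± 1.33 TPM with R157S and 12.3 ± 1.12 TPM with R157F (-0.54 ± 0.14, adjusted p = 0.0424). The medians of the lists, -0.002 for BMP and 0.065 for TGF-beta, were below that of all genes. SMAD5 alone of these passed with the trends removed; SMAD4 and SMAD2 then differed by 0.31 and 0.26 (adjusted p = 0.185 and 0.0893). With 1 of the 6 libraries left out SMAD5 passed each time, SMAD4 without R157S replicate 1, R157F replicate 1 or R157F replicate 2, NOG without R157S replicate 1, and SMAD2 and FSTL1 in no case. With the replicate block SMAD5 was the only one of the BMP list called, FSTL1 and NOG being at adjusted p = 0.057 and 0.0507. After median-ratio scaling 1 of the BMP list was higher and 1 lower.

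**Figure D4:**
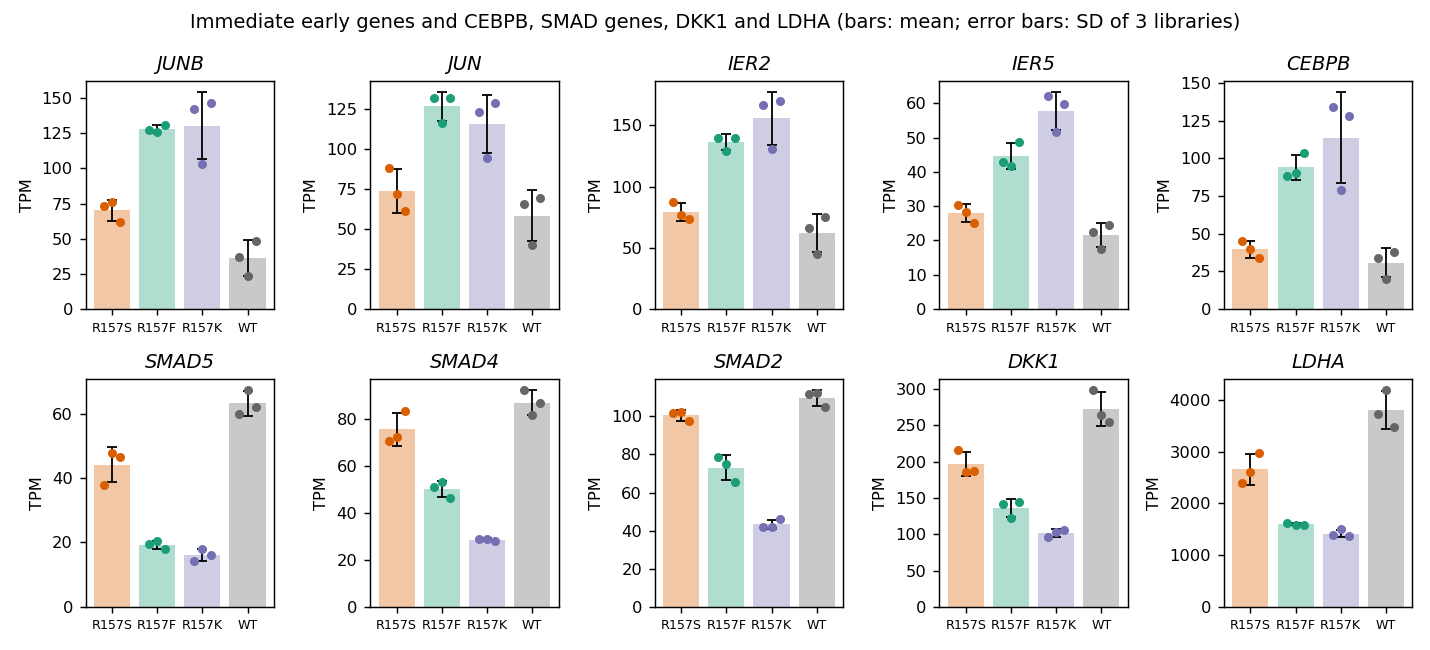
TPM in each library (points), with the mean (bars) and SD of 3 libraries (error bars), for R157S, R157F, R157K and WT. In the upper row the R157S libraries lie below the R157F libraries, as for JUNB at 61.99 to 76.05 against 125.79 to 130.81 TPM, and in the lower row above them, as for SMAD5 at 37.93 to 47.94 against 18.02 to 20.32 TPM.

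In the WNT list 3 of 34 genes were higher and 1 was lower (11.8%, against 5.42% of all genes). DKK1, a secreted antagonist that blocks the LRP5 and LRP6 co-receptors, had 216.03, 186.16 and 187.63 TPM with R157S, against 141.68, 122.18 and 144.51 TPM with R157F (0.53 ± 0.10, adjusted p = 0.0192). FZD8, a frizzled receptor, was lower, with 17.2, 14.02 and 11.54 TPM with R157S, against 29.54, 21.89 and 29.22 TPM with R157F (-0.87 ± 0.20, adjusted p = 0.0298). CTNNB1, which encodes beta-catenin, averaged 310 ± 4.82 TPM with R157S and 253 ± 6.25 TPM with R157F, and RYK, a receptor for WNT ligands, 72.0 and 54.0 TPM, with log2 differences of 0.29 and 0.40. The groups were separate in all 4. None of the 4 passed with the trends removed, where CTNNB1 was at 0.02. Other members of the list were called then, 0 higher and 3 lower of 34, against 3.5% of all genes. With a library left out FZD8 passed without R157S replicate 1, and DKK1, CTNNB1 and RYK passed in no case, DKK1 running from 0.45 to 0.57. In the fit without R157S replicate 1 the whole list had 2 higher and 1 lower. With the replicate block, and likewise after median-ratio scaling, 1 of the list was higher and 1 lower; with the block CTNNB1 and RYK were not called (adjusted p = 0.0685 and 0.0642). No gene of the hedgehog list (11 tested), and none of the chromatin remodelling, cilium, ephrin, semaphorin or integrin lists, was called, against 5.42% of all genes.

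Of 42 transcription factors of the developing palate, 2 were lower with R157S and 0 higher (4.76%, close to the 5.42% of all genes). The 42 include MSX1, which the plasmids carry. In 17 of the 42 the R157S libraries lay wholly below the R157F libraries, a larger share than the 18.7% of all genes. FOXD1, a forkhead factor of stromal mesenchyme, had 25.52, 25.29 and 19.97 TPM with R157S, against 39.66, 42.0 and 44.26 TPM with R157F (-0.81 ± 0.18, adjusted p = 0.0303). TWIST2, a basic helix-loop-helix factor of mesenchyme, had 99.15, 101.89 and 96.99 TPM with R157S, against 149.64, 161.46 and 163.14 TPM with R157F (-0.66 ± 0.17, adjusted p = 0.0442). Both stayed below the R157F range in every R157S library and passed with the trends removed (adjusted p = 0.0235 and 0.0189), and neither passed with any 1 of the 6 libraries left out. PRRX1, a homeodomain factor of limb and facial mesenchyme, averaged 711 ± 27.0 TPM with R157S and 561 ± 53.8 TPM with R157F and missed the threshold (0.35, adjusted p = 0.0539).

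Most matrix lists had a share of calls near the 5.42% of all genes, with 1 of 37 called for fibrillar collagens and their processing (2.7%), 1 of 21 for the basement membrane (4.76%), 1 of 24 for metalloproteinases and their inhibitors (4.17%) and 1 of 14 for elastic fibres (7.14%). For hyaluronan and matrix proteoglycans it was 3 of 23 (13%). COL1A1, which encodes the main chain of type I collagen, was lower with R157S, at 1241.18, 1338.03 and 1111.91 TPM, against 1791.5, 1650.81 and 1744.02 TPM with R157F (-0.49 ± 0.11, adjusted p = 0.0305), and its WT mean was 558 TPM. It was the call of the fibrillar collagen list. COL1A2, the other chain, averaged 3470 ± 256 TPM with R157S and 3220 ± 124 TPM with R157F (0.10, adjusted p = 0.46). VCAN, which encodes the hyaluronan-binding proteoglycan versican, had 65.98, 68.63 and 65.77 TPM with R157S, against 52.51, 46.3 and 48.93 TPM with R157F (0.43 ± 0.09, adjusted p = 0.0243). GPC3, a cell-surface heparan sulfate proteoglycan, averaged 516 ± 57.7 TPM with R157S and 396 ± 18.7 TPM with R157F (0.38 ± 0.09, adjusted p = 0.0355), and HAPLN3, which links hyaluronan to proteoglycans, was lower at 10.06, 7.08 and 7.4 TPM with R157S, against 12.54, 12.17 and 12.34 TPM with R157F (-0.55 ± 0.14, adjusted p = 0.0466). The calls of the basement membrane, elastic fibre and metalloproteinase lists were LAMA4, EFEMP1 and TIMP3, higher with R157S by 0.38, 0.59 and 0.34. None of these 7 genes passed with the trends removed, where other members were called. Of the 37 fibrillar collagen and processing genes 3 were then higher and 1 lower, against 3.5% of all genes called. The basement membrane, elastic fibre and hyaluronan lists then had 1 higher and 0 lower each, and the metalloproteinase list 0 of both. With a library left out the 7 genes passed only without R157S replicate 1, and then only GPC3 and HAPLN3. GPC3, HAPLN3, LAMA4 and TIMP3 lost their calls with the replicate block (adjusted p = 0.0514, 0.0575, 0.0581 and 0.0676).

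Mitochondrially encoded genes were the list with the highest share of calls. Of 13 protein genes, 7 were higher with R157S and 1 lower (61.5%, against 5.42% of all genes), with a median of 0.381. After median-ratio scaling 2 were higher and 0 lower. MT-ATP6, a subunit of ATP synthase, had 3782.04, 3844.17 and 3956.44 TPM with R157S, against 2386.13, 2682.66 and 2158.03 TPM with R157F (0.69 ± 0.10, adjusted p = 0.00744). MT-ND4, a subunit of complex I, had 5357.96, 5305.07 and 5672.9 TPM with R157S, against 3479.77, 3558.73 and 3149.09 TPM with R157F (0.68 ± 0.10, adjusted p = 0.00762). MT-ND3, also of complex I, went the other way, with 2370.75, 2163.56 and 2251.99 TPM with R157S, against 2875.39, 2882.1 and 3396.32 TPM with R157F (-0.43 ± 0.11, adjusted p = 0.0406). Genes of the same genome thus differed in opposite directions with separate ranges. MT-ND5 and MT-CYB were higher by 0.54 and 0.41. With the trends removed 3 were higher and 1 lower, MT-ATP6, MT-ND4 and MT-ND3 among them, against 3.5% of all genes called. Without R157S replicate 1, 2 or 3, 2, 2 and 1 of the list passed, and without R157F replicate 1, 2 or 3, 2, 2 and 0. MT-ND3 lost its call with the replicate block (adjusted p = 0.0592).

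Nuclear genes for subunits of oxidative phosphorylation were called in both directions, 5 higher and 6 lower of 80 (13.8%, against 5.42% of all genes). Their median was -0.205. Beside ATP5PB, NDUFA9, a complex I subunit, was higher, at 117.25, 116.32 and 130.92 TPM with R157S, against 86.85, 83.04 and 80.36 TPM with R157F (0.54 ± 0.08, adjusted p = 0.00826). NDUFC2, another complex I subunit, was lower, at 110.47, 98.72 and 86.5 TPM with R157S, against 151.99, 155.25 and 158.87 TPM with R157F (-0.66 ± 0.11, adjusted p = 0.0114). NDUFB10 was also lower, at 78.57, 91.64 and 74.73 TPM with R157S, against 122.07, 118.33 and 130.85 TPM with R157F (-0.60 ± 0.11, adjusted p = 0.017). With the trends removed 1 gene was higher and 11 were lower, against 2.12% and 1.38% of all genes. NDUFA9 and NDUFB10 then missed the threshold (adjusted p = 0.0596 and 0.0672, limma). With the replicate block 4 were higher and 3 lower, and after median-ratio scaling 2 and 4. The number called with 1 library left out was lowest without R157S replicate 3 or R157F replicate 3, at 1 higher and 0 lower for each, and highest without R157S replicate 1, at 4 higher and 2 lower.

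Cytosolic ribosomal protein genes stood lower with R157S in many cases. Of 85 tested, 57 had R157S libraries wholly below the R157F libraries (18.7% of all genes did) and 8 the reverse (28.8% did). Called lower were 2 and higher 0 (2.35%, against 5.42% of all genes). Without WT replicate 2, where 3300 of all genes passed, 2 were higher and 30 lower. In the 6 libraries alone, where 31.4% of all genes passed, 8 were higher and 44 lower. With the trends removed 0 were higher and 7 lower, against 2.12% and 1.38% of all genes. RPS29, of the small subunit, had 1309.97, 1093.63 and 990.89 TPM with R157S, against 2148.38, 1989.96 and 2398.92 TPM with R157F (-0.95 ± 0.21, adjusted p = 0.028). RPS21, also of the small subunit, had 653.46, 472.03 and 431.42 TPM with R157S, against 900.67, 814.65 and 974.58 TPM with R157F (-0.81 ± 0.17, adjusted p = 0.0254). RPS27, one of the most abundant, averaged 2540 ± 91.3 TPM with R157S and 3720 ± 345 TPM with R157F and missed the threshold (-0.55, adjusted p = 0.0855). Processed pseudogenes resemble many of these genes, and how the authors' counting divided such reads is not given in the sources used here. RPS29 kept its call with the trends removed and RPS21 did not (adjusted p = 0.0596), and both were called with a library left out only without R157S replicate 1.

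Of 70 genes for translation factors, 15 were higher with R157S and 0 lower (21.4%, against 5.42% of all genes), with a median of 0.108. In 30 of the 70 the R157S libraries lay wholly above the R157F libraries, a larger share than the 28.8% of all genes. After median-ratio scaling 3 were higher and 1 lower, and with the replicate block 12 were higher and 0 lower. EIF4G2, a scaffold of initiation related to EIF4G1, had 934.93, 961.74 and 989.57 TPM with R157S, against 704.24, 680.06 and 666.21 TPM with R157F (0.49 ± 0.08, adjusted p = 0.014). PABPC1, the main cytoplasmic poly(A)-binding protein, had 553.08, 632.96 and 621.45 TPM with R157S, against 446.19, 457.77 and 393.43 TPM with R157F (0.48 ± 0.09, adjusted p = 0.0186). EIF4EBP2, an inhibitor of cap-dependent initiation, and EIF5A2, a relative of the hypusine-bearing EIF5A, differed by 0.48 and 0.84. With the trends removed 7 were higher and 1 was lower, against 3.5% of all genes called. EIF4G2 and PABPC1 were among the 7 but not EIF4EBP2 or EIF5A2 (adjusted p = 0.07 and 0.119, limma). Without R157S replicate 1, 2 or 3, 6, 0 and 0 of the list passed, and without R157F replicate 1, 2 or 3, 1, 3 and 0.

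Proteasome genes had 7 of 46 members higher and 2 lower (19.6%, against 5.42% of all genes), around a median of 0.033. After median-ratio scaling 3 were higher and 1 lower. With the trends removed 1 was higher and 2 lower, against 3.5% of all genes called. PSMA5, a subunit of the core's outer ring, had 87.76, 96.84 and 101.39 TPM with R157S, against 55.67, 58.03 and 57.5 TPM with R157F (0.73 ± 0.10, adjusted p = 0.00689). PSME4, which caps the core as the activator PA200, averaged 49.9 ± 2.81 TPM with R157S and 34.6 ± 1.59 TPM with R157F (0.52 ± 0.09, adjusted p = 0.0166). PSMC2, an ATPase of the regulatory particle, and PSMB2, of the core's inner ring, each differed by 0.51. PSMA5 passed with any 1 of the 6 libraries left out and missed the threshold with the trends removed (0.42, adjusted p = 0.0802), as did PSME4, PSMC2 and PSMB2 (adjusted p = 0.0781, 0.184 and 0.0669). Without R157S replicate 1, 2 or 3, 6, 1 and 1 of the list passed, and without R157F replicate 1, 2 or 3, 2, 1 and 1.

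Among metabolic genes, LDHA, which reduces pyruvate to lactate at the end of glycolysis, was higher with R157S, at 2390.82, 2603.7 and 2979.26 TPM, against 1619.71, 1582.41 and 1583.83 TPM with R157F (0.73 ± 0.10, adjusted p = 0.00448). PDK1, the kinase that restrains the entry of pyruvate into mitochondria, had 18.85, 23.07 and 22.28 TPM with R157S, against 11.63, 11.19 and 11.88 TPM with R157F (0.83 ± 0.14, adjusted p = 0.0125). KDM3A, a histone demethylase that hypoxia induces, and EGLN1, the oxygen-sensing prolyl hydroxylase, were higher by 0.44 and 0.61. With LDHA and PDK1 they were the 4 calls among 32 genes of hypoxia and glycolysis (12.5%, against 5.42% of all genes). The list's median was -0.005, and PKM, the last kinase of glycolysis, averaged 3930 ± 146 TPM with R157S and 3540 ± 52.8 TPM with R157F (0.15, adjusted p = 0.311; 0.0385 with the trends removed). In the cholesterol list 4 of 33 were higher (12.1%), among them SOAT1 and the fatty acid desaturases SCD and FADS2, at 0.35 and 0.47. LDHA and SOAT1 passed with any 1 of the 6 libraries left out and with the trends removed. PDK1 and FADS2 passed with the trends removed (adjusted p = 0.0137 and 0.00197) while SCD, KDM3A and EGLN1 did not. PDK1 passed without R157S replicate 1, R157F replicate 1 or R157F replicate 2, SCD without R157S replicate 1, and FADS2, KDM3A and EGLN1 in no case. KDM3A and SCD lost their calls with the replicate block (adjusted p = 0.0509 and 0.0572). After median-ratio scaling 2 of the hypoxia and glycolysis list and 1 of the cholesterol list were higher.

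Genes of the interferon response gave 4 higher and 1 lower of 44 (11.4%), and 0 higher and 1 lower after median-ratio scaling. MX2, a GTPase that restricts viruses, had 233.04, 278.67 and 324.02 TPM with R157S, against 187.51, 177.37 and 173.24 TPM with R157F (0.62 ± 0.15, adjusted p = 0.036). EIF2AK2, the double-stranded RNA-activated kinase PKR, had 146.86, 144.38 and 147.81 TPM with R157S, against 104.14, 94.19 and 84.88 TPM with R157F (0.63 ± 0.16, adjusted p = 0.0441), and OAS2 differed by 0.35. IFI6, a small mitochondrial protein, was lower, at 2645.91, 2717.04 and 2544.24 TPM with R157S, against 3654.54, 3993.21 and 4003.71 TPM with R157F (-0.56 ± 0.11, adjusted p = 0.0233). IFITM1, a membrane protein that blocks viral entry, averaged 5670 ± 965 TPM with R157S and 8650 ± 546 TPM with R157F without passing (-0.62, adjusted p = 0.136). Members of the list thus lay on both sides, with IFI6 and EIF2AK2 still called with the trends removed and MX2 and OAS2 not. With 1 library left out MX2 passed without R157S replicate 1 and EIF2AK2, OAS2 and IFI6 in no case. With the replicate block 2 of the list were higher and 1 lower, and MX2 was not called (adjusted p = 0.0535). In the list of NF-kB, chemokine and cytokine genes 2 of 42 were higher and 1 was lower (7.14%, against 5.42% of all genes). IL11, which acts through the shared receptor chain IL6ST, was lower, with 30.4, 22.29 and 18.98 TPM with R157S, against 43.42, 38.13 and 43.79 TPM with R157F (-0.80 ± 0.19, adjusted p = 0.0355; passed with 1 library left out only without R157S replicate 1). TNFRSF11B, the decoy receptor osteoprotegerin, which was also the 1 call among 10 bone and cartilage genes, was higher, with 554.77, 644.11 and 676.08 TPM with R157S, against 424.62, 477.36 and 411.67 TPM with R157F (0.51 ± 0.11, adjusted p = 0.0291). IL13RA1, a receptor chain for interleukin 13, was higher by 0.47. TNFRSF11B and IL13RA1 missed the threshold with the trends removed (adjusted p = 0.121 and 0.141), and with a library left out TNFRSF11B passed without R157S replicate 1 and IL13RA1 in no case.

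**Figure D5:**
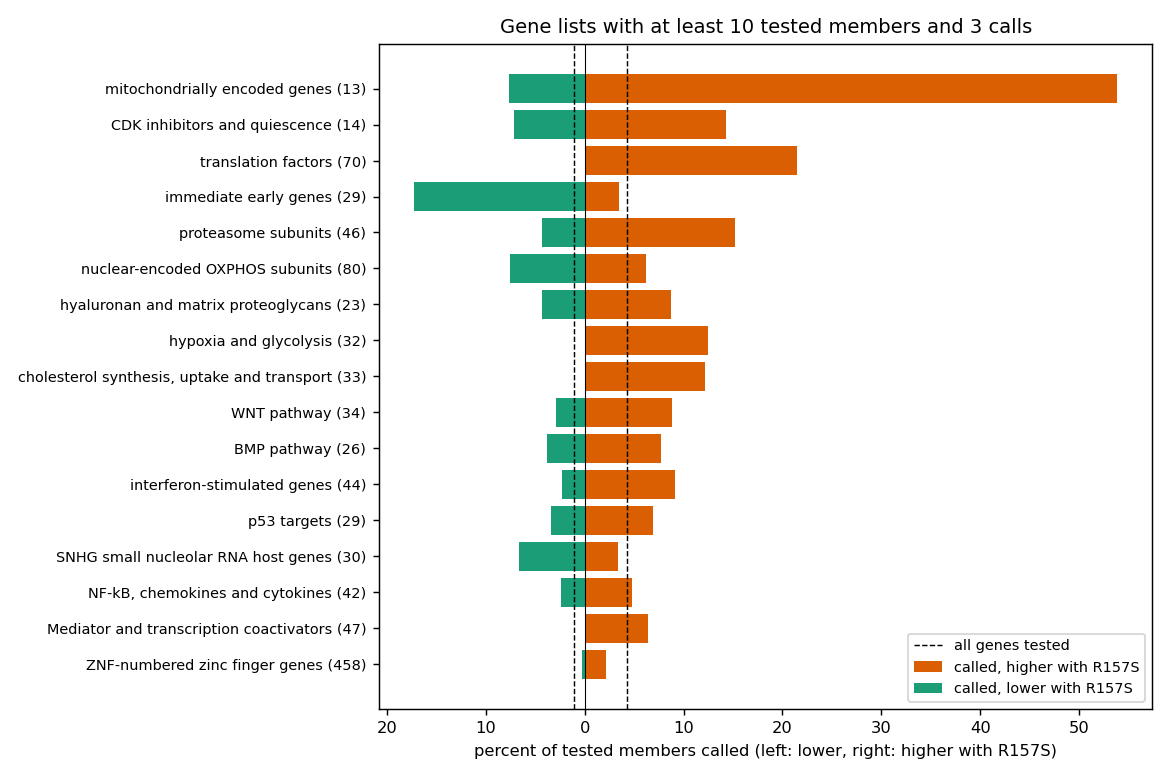
Percent of tested members called, higher with R157S to the right and lower to the left, for the lists with at least 10 tested members and 3 calls; numbers in parentheses are members tested. Dashed lines mark the shares over all genes tested, 4.31% higher and 1.11% lower. Mitochondrially encoded genes reach 7 of 13 on the right and immediate early genes 5 of 29 on the left.

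Genes that passed under every setting run numbered 21, of which 19 were higher and 2 lower with R157S. Those outside the lists and the largest differences were chosen after their values were seen. RAN, the GTPase of nuclear transport, had 623.54, 721.1 and 747.92 TPM with R157S, against 408.69, 430.68 and 392.07 TPM with R157F (0.76 ± 0.09, adjusted p = 0.00263). UBE2L3, a ubiquitin-conjugating enzyme, had 152.07, 175.04 and 173.31 TPM with R157S, against 90.47, 95.7 and 85.25 TPM with R157F (0.87 ± 0.11, adjusted p = 0.00335). PARVA, a focal adhesion protein that binds integrin-linked kinase, had 94.1, 104.35 and 116.81 TPM with R157S, against 57.03, 58.36 and 40.14 TPM with R157F (1.02 ± 0.14, adjusted p = 0.00448). Each of these 3 had a wide gap between its groups. EFTUD2, a GTPase of the spliceosome, TOX4, an HMG-box protein, AK5, an adenylate kinase, LRRC47 and ZNF766 were also higher, by 0.72, 0.86, 0.94, 0.71 and 0.95. TMEM199, which takes part in assembling the vacuolar proton pump, was the protein-coding gene called lower, at 23.48, 23.86 and 21.07 TPM with R157S, against 40.71, 43.43 and 38.53 TPM with R157F (-0.82 ± 0.11, adjusted p = 0.005).

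The largest differences of any gene type were in noncoding RNAs, pseudogenes and genes without a symbol. TRIM8-DT, a noncoding RNA divergent from TRIM8, was listed at 0.72, 0 and 0.02 TPM with R157S, against 6.77, 11.45 and 9.36 TPM with R157F, and had the lowest p of all genes (adjusted p = 0.000348). GTF2IP1, a pseudogene of the general factor GTF2I, was listed at 21.56, 4.79 and 13.85 TPM with R157S and at 0 in all 3 R157F libraries (adjusted p = 0.00173). ENSG00000247121, without a symbol, was at 53.85, 14.86 and 19.97 TPM with R157S, against 1.02, 1.2 and 0.77 TPM with R157F, and its WT mean, 1.28 TPM, was near R157F. It passed in 5 of the 6 fits with a library left out and not without R157F replicate 3 (adjusted p = 0.0629). PXN-AS1, an antisense RNA chosen after its values were seen, was at 15.46, 16.17 and 28.19 TPM with R157S, against 1.42, 2.21 and 2.48 TPM with R157F (2.75 ± 0.34, adjusted p = 0.00353). Reads of pseudogenes and antisense RNAs cannot be told from those of near-identical or overlapping genes here, since the sources used here do not state the strand setting or the treatment of shared reads. Of the small nucleolar RNA host genes, SNHG18 was lower, with 10.91, 10.2 and 14.48 TPM with R157S, against 24.1, 21.28 and 29.24 TPM with R157F (-1.01 ± 0.18, adjusted p = 0.0164), and SNHG16 higher by 0.71. SNHG18 passed without R157S replicate 1, R157S replicate 3 or R157F replicate 2 and with the trends removed, and SNHG16 passed with them removed and without R157S replicate 1.

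Small lists of growth control had a few calls each, where 5.42% of all genes tested were called. Of 14 CDK inhibitor and quiescence genes 2 were higher and 1 lower (21.4%): BTG1, an antiproliferative protein, at 132.55, 130.42 and 145.55 TPM with R157S, against 91.97, 99.42 and 88.53 TPM with R157F (0.54 ± 0.14, adjusted p = 0.0449), TXNIP, an inhibitor of thioredoxin, by 0.36, and KLF2, which was lower. Of 29 targets of p53 2 were higher and 1 lower (10.3%): POLH, a polymerase that copies past ultraviolet damage, at 18.57, 19.36 and 19.24 TPM with R157S, against 14.24, 12.43 and 12.68 TPM with R157F (0.51 ± 0.10, adjusted p = 0.0236), CCNG1, cyclin G1, by 0.53, and PHLDA3, a repressor of AKT, lower, at -0.81. POLH and PHLDA3 passed with the trends removed and BTG1, TXNIP and CCNG1 did not. Of the 14 CDK inhibitor and quiescence genes 0 were then higher and 0 lower, against 3.5% of all genes called. None of the 14 was called with any 1 of the 6 libraries left out. Among the 19 palatal mesenchyme markers tested, COL1A1 and NT5E, the ecto-enzyme CD73 at 0.39, were called (10.5%), and NT5E did not pass with the trends removed (adjusted p = 0.233). With a library left out POLH passed without R157S replicate 1 and BTG1, TXNIP, CCNG1, PHLDA3 and NT5E in no case, and with the replicate block TXNIP and NT5E were not called (adjusted p = 0.0654 for both).

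Several larger lists had shares of calls below the 5.42% of all genes. ZNF-numbered zinc finger genes gave 10 higher and 1 lower of 458 (2.4%; 6 and 0 with the replicate block), genes of the mitotic spindle 1 of 53 (1.89%) and mitochondrial ribosomal proteins 1 of 78 (1.28%). Of the 59 lists with a tested member, 17 had none called, among them the thymosin, S100 and galectin genes, in which 11 of 17 had R157S libraries wholly below the R157F libraries (18.7% of all genes did). Histone genes had the lowest median of the larger lists, -0.384, with 1 call, H2BC12, lower at 81.6 ± 9.40 TPM with R157S and 140 ± 12.9 TPM with R157F (-0.77 ± 0.19, adjusted p = 0.0355). H2BC12 missed the threshold with the trends removed and in each of the 6 fits with a library left out. With the trends removed other histone genes were called, 0 higher and 3 lower of 29, against 3.5% of all genes. The list's median was then -0.286, against -0.002 over all genes. Near-identical histone genes share reads, so the estimate for H2BC12 is uncertain.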

How the data were processed

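The deposited table holds TPM per gene for 12 libraries, estimated with RSEM per the submitters' processing notes; the aligner and genome build are not given here, and depth is unknown. Of 63241 genes, 14718 reached 1 TPM in 3 or more libraries and were tested on log2(TPM + 1) with limma 3.58.1 (R 4.3.3, trended empirical Bayes), with 1 coefficient per plasmid over all 12 libraries (8 residual degrees of freedom), a two-sided test and Benjamini-Hochberg adjustment over all genes. A pseudocount of 1 understates the change of low genes. The fit was tested on simulated data. GC content, length, type and position of genes come from GENCODE 29. Single values were also compared by exact permutation over libraries.

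Named genes were MSX1, PRMT1, the 12 largest called protein-coding genes in each direction (at least 2 TPM on average, groups separate), the 5 lowest p, the 5 largest of any type, and, per list, up to 4 called and 2 abundant members. Members, lists and rules were chosen with earlier results of these data known. The labels tag the replicate number as batch, so same-numbered libraries were treated as pairs in the replicate-block fits and in values given per pair. The main fit and the permutation tests did not use the pairing. Whether same-numbered libraries were made together is not stated. The correlations of their deviations were 0.0662, 0.0677 and -0.118, and those of differently numbered libraries ran from -0.159 to 0.118, so these values do not set the pairs apart. Alternatives were another pseudocount, filters, median-ratio scaling, a replicate block, 6 libraries only, GC and length trends removed, and libraries left out; 3 of them were chosen after seeing the data. A gene of the tested set is not reported here.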

Additional observations from a re-analysis of the deposited data

How the results depend on the processing

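Against 798 calls (635 higher, 163 lower), no filter gave 344 (300 and 44, of 30594 genes), median-ratio scaling 339 (180 higher), the 6 libraries alone 4615 (2785 and 1830), the same with a replicate block 4475 (2728 and 1747), trends on GC and length removed 498 (302 higher), these with a replicate block 329 (207 higher), and leaving out WT replicate 2 3300 (2180 and 1120). Without WT replicate 2 and with the trends removed there were 529 lower. Leaving out 1 R157S or R157F library gave 33 to 353 calls (26 to 295 higher, 6 to 58 lower). The fits without R157K, with 6 libraries and a block, and without WT replicate 2 with trends removed were chosen after seeing the data. A replicate block alone gave 626 calls (485 and 141); the named genes whose call it changed stand beside their results, and it changed no other call of a gene given with its values. It also gave 6 higher and 0 lower for mitochondrially encoded genes, and 1 higher and 3 lower host genes of small nucleolar RNAs. With the block 3 palate transcription factors were lower, and the transfected MSX1 was among them. MSX1, at -0.98, passed with the block, in the 6 libraries alone with or without the block, and without WT replicate 2. With a library left out MSX1 ran from -1.26 to -0.78. PRMT1, at -0.40, passed in the 6 libraries alone with or without the block and without WT replicate 2 (-0.19 with the trends removed too); with a library left out it ran from -0.43 to -0.36. The cause of these changes was not tested. No named gene given with a difference changed sign in any setting. Precision is limited by 3 libraries per group, and depth is unknown.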
